A study of Mus musculus with 9 samples.

Results

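The collagen genes of the mouse were described in RNA from the gastrocnemius, a calf muscle. Members were the protein-coding genes whose symbol is Col, digits, a, digits and nothing more. The rule found 44 genes, of 27 collagen types, among the 55401 genes of each count table. By type they fall into 11 fibrillar genes, 8 genes of basement membranes and 25 genes of other kinds, and the rule uses the symbol and type alone, not a measured value.

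All mice were wild-type FVB animals aged 2 to 3 months, and the muscle was collected 7 weeks after it had been injected. The injection was a virus vector (an adeno-associated virus, AAV) carrying green fluorescent protein and MBNL1∆ (AAV-GFP-MBNL1∆), the vector with green fluorescent protein alone (AAV-GFP), or saline. Per the series title, the study is about a decoy RNA-binding protein for the expanded CUG repeats of myotonic dystrophy, while the labels give these mice as wild type. Each group had 3 libraries, and the labels do not say that they come from separate animals or which promoter drives the vectors.

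Collagens are the main proteins of the extracellular matrix, and each molecule is a helix of 3 chains that come from 1 or several genes. Fibrillar collagens build the tensile fibrils of the sheaths around muscle fibres, bundles and tendon, and in muscle they are made mostly by fibroblasts and their relatives. Type IV collagen forms the network of the basement membrane that wraps every muscle fibre and capillary, type VI collagen forms beaded filaments next to that membrane, and fibril-associated collagens coat fibrils and tune their spacing and attachment.

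Libraries held 44603618 to 76970849 counts in genes. Collagen genes took 0.206%, 0.223% and 0.252% of them in AAV-GFP-MBNL1∆ 1 to 3, 0.300%, 0.483% and 0.197% in AAV-GFP 1 to 3, and 0.212%, 0.168% and 0.218% in saline 1 to 3. AAV-GFP 2 stood apart: its 10 most abundant genes took 17.7% of its counts, against 23.6% to 27.7% in the other 8 libraries. CPM is a gene's count scaled to the size of its library. The summed level of 6 macrophage markers was 116 to 181 CPM in AAV-GFP-MBNL1∆, 339, 1483 and 150 CPM in AAV-GFP 1 to 3, and 64.3 to 83.7 CPM in saline. Markers of muscle fibres were abundant in every library (Ckm, muscle creatine kinase, at 9353 CPM or more), but lowest in AAV-GFP 2. The 7 markers summed to 113900 to 134000 CPM in AAV-GFP-MBNL1∆, 98130, 64010 and 109000 CPM in AAV-GFP 1 to 3, and 111800 to 137900 CPM in saline. Counts of Mbnl1, which do not separate the vector's transcript from the gene of the mouse, were 575 to 711 CPM in AAV-GFP-MBNL1∆, 356 to 491 CPM in AAV-GFP and 445 to 593 CPM in saline. Xist, which is expressed by female cells, was at 0.0182 to 0.0902 CPM in AAV-GFP-MBNL1∆, 106 to 136 CPM in AAV-GFP and 105 to 130 CPM in saline, while the Y-linked Ddx3y was at 82.7 to 84.6 CPM in AAV-GFP-MBNL1∆, 0.487 to 2.58 CPM in AAV-GFP and 0.409 to 0.693 CPM in saline. The AAV-GFP-MBNL1∆ libraries thus had the pattern of males and the others that of females, the labels give no sex, and in both comparisons with AAV-GFP-MBNL1∆ sex and vector cannot be told apart.

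Levels between genes are given as CPM per kb of exon, where the length is that of the merged exons of all annotated transcripts. This length was 12426 bases for Col1a2 and 6563 for Col1a1, and the order of genes depends on it. In plain CPM the saline means were 396 for Col1a2, 287 for Col3a1 and 273 for Col1a1. In saline the highest collagen gene was Col1a1 at 41.5 ± 10.7 CPM per kb (SD, n = 3), followed by Col1a2 at 31.8 ± 3.82, its partner in type I collagen, Col3a1 at 29.2 ± 6.81, Col4a1 at 28.1 ± 1.92, Col6a1 at 25.6 ± 2.5 and Col4a2 at 23.4 ± 1.75 CPM per kb. The ranges of mean ± SD of neighbours in this order overlapped, but the genes were measured in the same libraries. Col1a1 was above Col1a2, and Col6a1 above Col4a2, in each saline library. The order of the other neighbours changed between saline libraries. Next came Col15a1 at 12.3 ± 1.12, Col6a2 at 12.3 ± 1.65, Col6a3 at 7.68 ± 0.718 and Col5a1 at 6.21 ± 0.795 CPM per kb. The remaining 34 genes were each at or below 4.02 CPM per kb, so that types I, III, IV, VI and XV held most of the collagen message. At the low end, Col6a4 had 29 reads and Col10a1, the collagen of growth plate cartilage, 13 reads in all 9 libraries together, and both fell below the filter on low counts. The other 42 genes were tested, 7 members were below 1 CPM in every group, and 27 reached 5 CPM in at least 1 group.

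**Figure D1:**
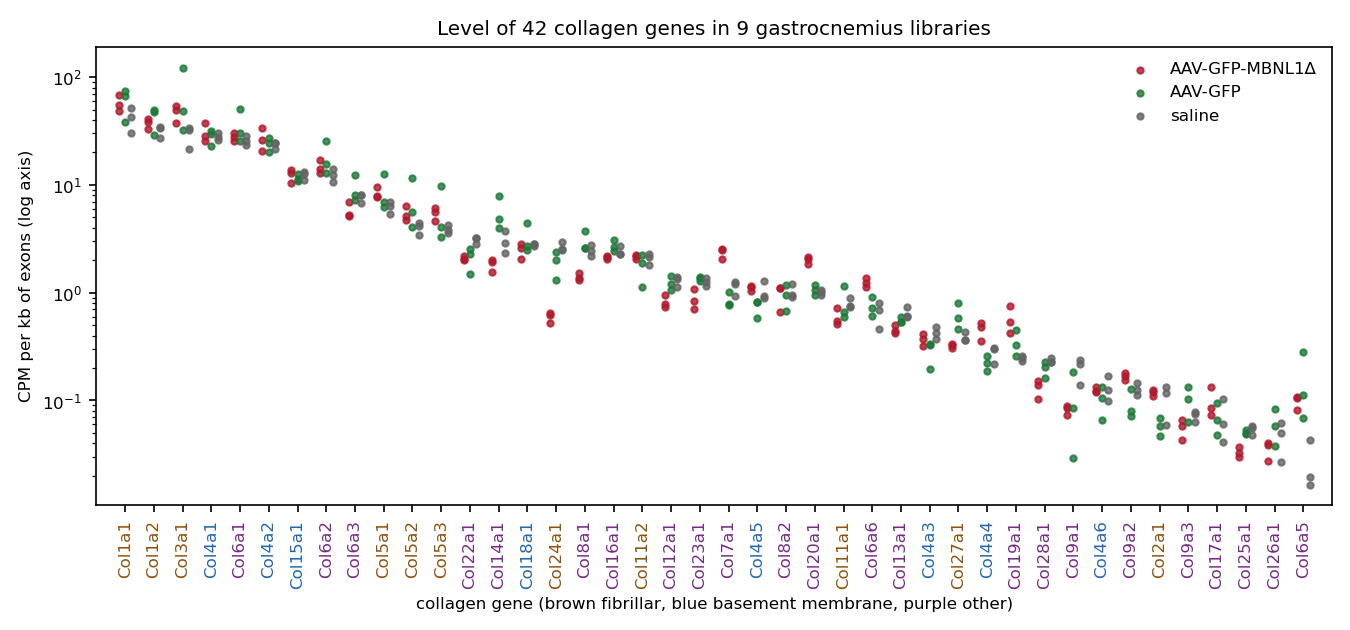
Level of each of the 42 tested collagen genes in CPM per kb of exon on a log axis, ordered by the saline mean, with 1 point per library (AAV-GFP-MBNL1∆ red, AAV-GFP green, saline grey). Levels span from 41.5 CPM per kb for Col1a1 down to 0.0263 CPM per kb for Col6a5 in saline, and for Col24a1 and Col7a1 the AAV-GFP-MBNL1∆ libraries stand apart from the others.

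The fibrillar class as a whole varied between libraries of a group, most of all within AAV-GFP. Its summed level was 139.1, 165.3 and 189.1 CPM per kb in AAV-GFP-MBNL1∆ 1 to 3, 194.5, 273.3 and 118.6 CPM per kb in AAV-GFP 1 to 3, and 139.7, 97.4 and 131.1 CPM per kb in saline 1 to 3. All groups overlapped on this scale, and AAV-GFP 2 was the highest library. As plain CPM, which gives long transcripts more weight, the sums were 1264, 1511 and 1704 CPM in AAV-GFP-MBNL1∆, 1767, 2540 and 1088 CPM in AAV-GFP, and 1260, 902 and 1208 CPM in saline. On this scale the AAV-GFP-MBNL1∆ libraries were above the saline ones, but AAV-GFP-MBNL1∆ 1 and saline 1 nearly tied (1264 against 1260 CPM). The basement membrane class was flatter, at 69.67, 63.45 and 89.75 CPM per kb in AAV-GFP-MBNL1∆, 69.39, 76.65 and 57.81 in AAV-GFP, and 72.75, 63.17 and 69.58 in saline. The remaining types summed to 61.11, 63.61 and 72.63 CPM per kb in AAV-GFP-MBNL1∆, 74.1, 112.4 and 65.6 in AAV-GFP, and 65.11, 58.37 and 70.61 in saline. As a share of all collagen message per kb, fibrillar genes held 51.5% to 56.6% in AAV-GFP-MBNL1∆, 49.0% to 59.1% in AAV-GFP and 44.5% to 50.3% in saline, so the AAV-GFP-MBNL1∆ libraries lay above the saline libraries and inside the range of AAV-GFP. In RNA from whole muscle, a change in the number of cells that make a collagen and a change in the message per cell cannot be told apart.

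**Figure D2:**
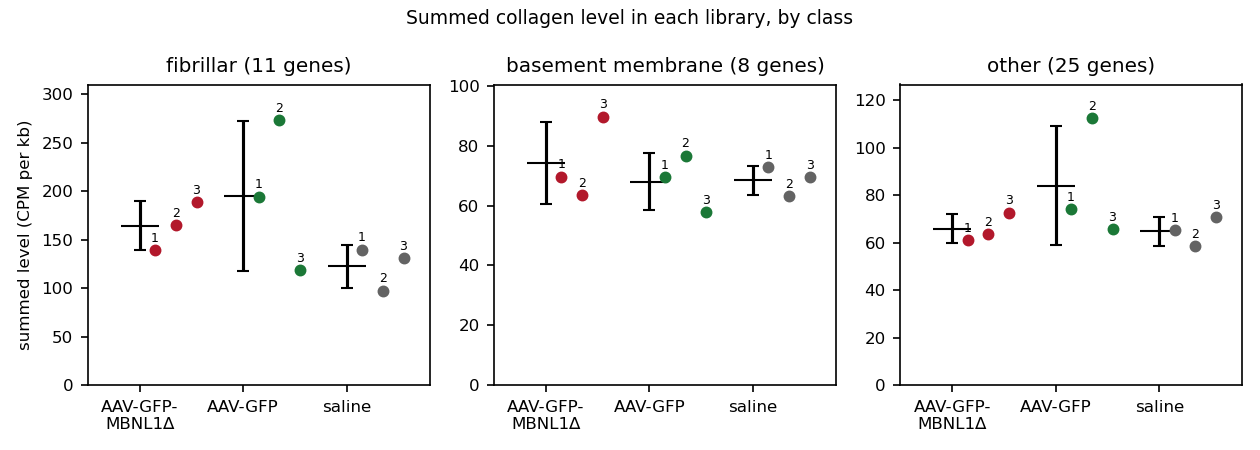
Summed level of the fibrillar (11 genes), basement membrane (8 genes) and other (25 genes) collagen genes in each library, in CPM per kb, with bars for mean ± SD (n = 3) and points numbered by replicate. AAV-GFP 2 is the highest library for the fibrillar class, at 273.3, and for the other class, at 112.4 CPM per kb.

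Gene by gene, the text uses a log2 fold change with its standard error and an adjusted p from edgeR's quasi-likelihood test over all 18514 genes tested (Benjamini-Hochberg), and a call is an adjusted p under 0.05. AAV-GFP-MBNL1∆ differed from saline in 8 of the 42 collagen genes tested (19.05%), beside 9.37% of all tested genes. Col6a6, Col7a1, Col19a1 and Col20a1 were higher (4.76% of all genes were) and Col8a1, Col12a1, Col24a1 and Col28a1 were lower (4.6% of all genes were). AAV-GFP-MBNL1∆ differed from AAV-GFP in 14 of 42 (33.33%), beside 21.1% of all genes, with 7 higher and 7 lower (5 and 8 with upper-quartile scaling). Higher there were Col2a1, Col4a4, Col4a5, Col6a6, Col7a1, Col9a2 and Col20a1 (10.8% of all genes) and lower were Col6a3, Col8a1, Col12a1, Col14a1, Col23a1, Col24a1 and Col27a1 (10.3% of all genes). These comparisons share the AAV-GFP-MBNL1∆ libraries, so the 6 genes called in both (Col6a6, Col7a1, Col8a1, Col12a1, Col20a1 and Col24a1) do not count as independent repeats. At an unadjusted p under 0.05 there were 16 collagen genes against saline, 6 of them higher, beside 26% of all genes and 13.1% higher, and 19 against AAV-GFP, 8 of them higher, beside 40.3% of all genes and 17.6% higher. The groups did not overlap for 24 collagen genes against saline (11 higher and 13 lower), beside 42.7% of all genes (22.7% higher and 20% lower), and for 18 against AAV-GFP (7 higher and 11 lower), beside 38.4% of all genes (19.2% in each direction). Without AAV-GFP 2, 19 collagen genes were called against saline (8 higher and 11 lower), beside 21.7% of all genes (10.3% higher and 11.3% lower). That library is in neither group of this comparison, but the fit shares 1 estimate of spread over the 3 groups. They were the 8 above with Col4a4, Col5a1, Col5a3 and Col6a5 higher and Col6a3, Col9a1, Col13a1, Col14a1, Col22a1, Col23a1 and Col25a1 lower. The calls lay mostly outside the abundant types: against saline 1 of 11 fibrillar, 0 of 8 basement membrane and 7 of 23 other genes were called, and against AAV-GFP 3 of 11, 2 of 8 and 9 of 23. The median log2 fold change over the 42 genes was 0.031 against saline and −0.182 against AAV-GFP, beside 0.016 and −0.058 over all genes.

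**Figure D3:**
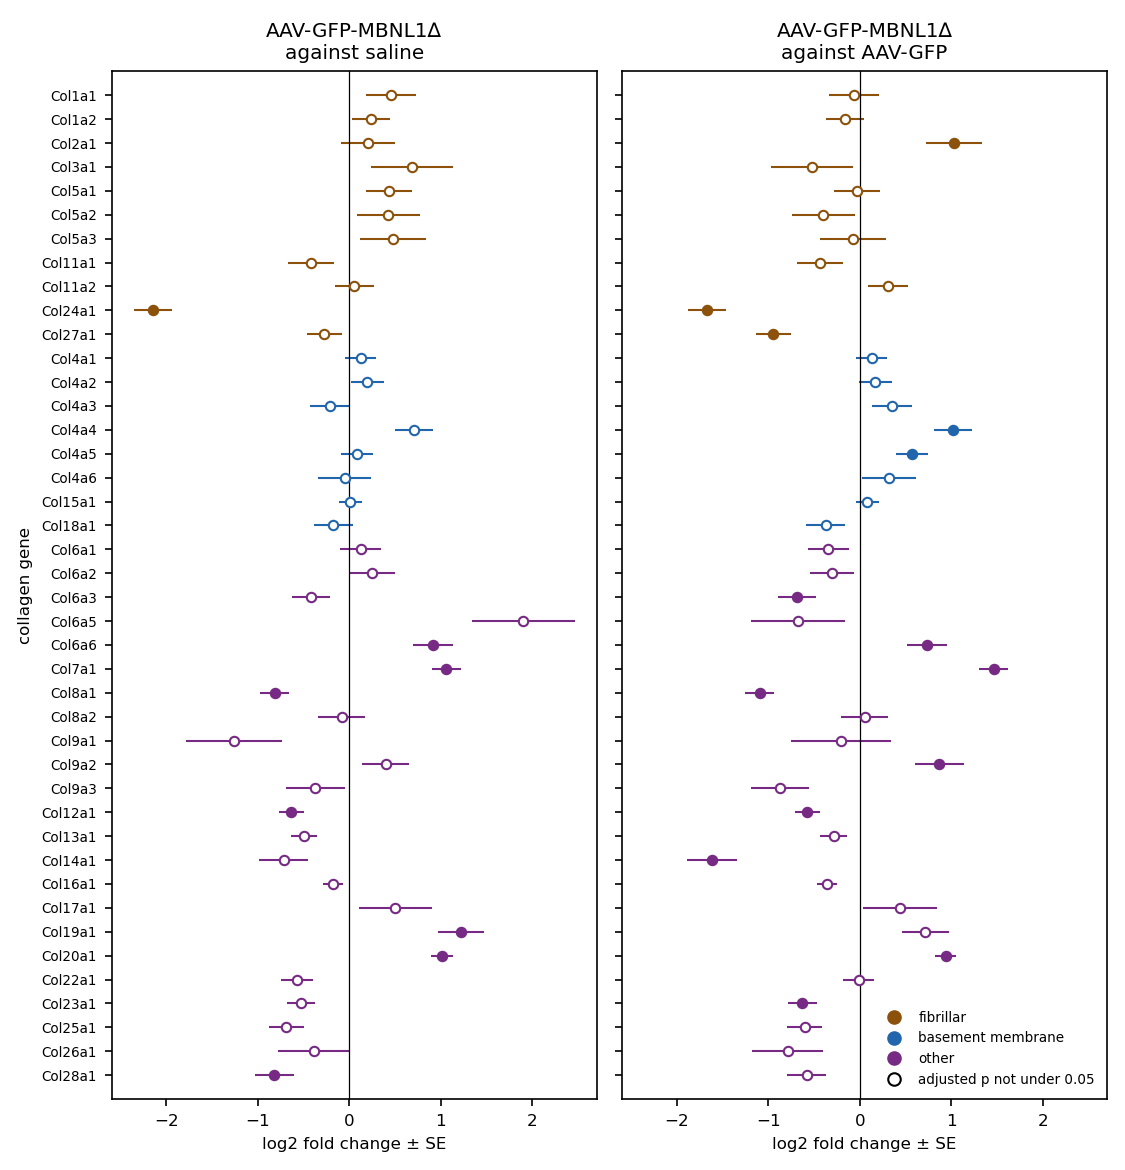
Log2 fold change ± SE of each of the 42 tested collagen genes for AAV-GFP-MBNL1∆ against saline (left) and against AAV-GFP (right), with colours for the class and filled points for an adjusted p under 0.05. Col24a1 lies farthest to the left in both panels, at −2.15 and −1.66, and Col7a1 and Col20a1 lie to the right in both.

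Col24a1, Col7a1 and Col20a1 were the genes whose calls held against both groups when any 1 library was left out. The 250 bases before their RefSeq transcription starts (GRCm38.p6) are printed for them, each 5′ to 3′ on the strand of the gene: Col24a1 at chr3:145292222-145292471 on the plus strand, Col7a1 at chr9:108953336-108953585 on the plus strand and Col20a1 at chr2:180986285-180986534 on the plus strand. Capitals mark a CCAAT box (CCAAT or ATTGG) and a GC box (GGGCGG or CCGCCC).
Col24a1: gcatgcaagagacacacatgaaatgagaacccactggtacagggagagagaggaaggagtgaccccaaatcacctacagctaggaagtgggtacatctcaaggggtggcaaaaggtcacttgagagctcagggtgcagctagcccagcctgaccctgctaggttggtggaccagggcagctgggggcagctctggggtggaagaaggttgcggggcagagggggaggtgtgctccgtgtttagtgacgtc
Col7a1: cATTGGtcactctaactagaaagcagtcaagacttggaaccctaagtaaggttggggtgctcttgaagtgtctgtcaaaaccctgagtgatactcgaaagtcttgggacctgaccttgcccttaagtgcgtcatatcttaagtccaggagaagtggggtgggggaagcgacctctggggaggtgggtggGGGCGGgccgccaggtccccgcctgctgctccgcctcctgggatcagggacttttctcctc
Col20a1: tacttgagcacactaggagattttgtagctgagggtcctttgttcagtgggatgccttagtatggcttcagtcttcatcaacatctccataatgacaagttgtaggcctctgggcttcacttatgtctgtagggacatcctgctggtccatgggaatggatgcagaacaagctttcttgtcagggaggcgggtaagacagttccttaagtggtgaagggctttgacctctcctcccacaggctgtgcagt
The TATA box was searched as TATAAA or TTTATA. Col7a1 had 1 CCAAT box and 1 GC box, 249 and 61 bases before the start, and the windows of Col24a1 and Col20a1 held none of the 3 motifs. RefSeq gave 38 such windows for 35 of the 44 collagen genes. A TATA box was in 13.16% of them and in 12.37% of the windows of all 32851 starts, a CCAAT box in 34.21% and 33.85%, and a GC box in 57.89% and 32.74%, with a median GC content of 59% in the collagen windows and 52.4% in all. A match is a match of letters only.

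Col24a1 codes for a minor fibrillar collagen found in mouse in bone and cornea, and lies on chromosome 3 (145292472 to 145552011, mm10). It had 3.99, 4.97 and 4.73 CPM in AAV-GFP-MBNL1∆ 1 to 3, 15.3, 9.93 and 18.2 CPM in AAV-GFP, and 22.5, 18.9 and 19.2 CPM in saline. Every AAV-GFP-MBNL1∆ library was below every library of the other groups, and the AAV-GFP libraries were below the saline ones. The log2 fold change was −2.15 (SE 0.21, adjusted p = 0.000905) against saline and −1.66 (SE 0.21, adjusted p = 0.0025) against AAV-GFP, and leaving out any 1 library gave −2.21 to −2.06 and −1.87 to −1.49. For AAV-GFP against saline it was −0.48 (SE 0.20, adjusted p = 0.212), which passed the threshold without AAV-GFP 3 (−0.67, adjusted p = 0.0404). It was the fibrillar gene with the lowest ratio of AAV-GFP-MBNL1∆ to saline means, at 0.226.

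Col7a1 (chromosome 9, 108953586 to 108984875), whose product forms the anchoring fibrils under skin and other epithelia, went the other way. It had 21, 26.4 and 25.4 CPM in AAV-GFP-MBNL1∆, 7.92, 8.13 and 10.3 CPM in AAV-GFP, and 12.9, 12.5 and 9.53 CPM in saline. The AAV-GFP-MBNL1∆ libraries lay above all others, and AAV-GFP and saline overlapped. For AAV-GFP against saline the log2 fold change was −0.41 (SE 0.16, adjusted p = 0.19), which passed the threshold without AAV-GFP 3 (−0.53, adjusted p = 0.0465). Col7a1 rose by 1.06 on the log2 scale against saline (SE 0.16, adjusted p = 0.00579) and by 1.46 against AAV-GFP (SE 0.16, adjusted p = 0.00126).

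Col20a1 (chromosome 2, 180986535 to 181018363), a fibril-associated collagen, had 11.1, 9.55 and 10.6 CPM in AAV-GFP-MBNL1∆, 5.41, 4.87 and 6.02 CPM in AAV-GFP, and 5.23, 4.88 and 5.40 CPM in saline. Its SD within a group was 0.799 CPM or less, and AAV-GFP and saline lay on each other. The gene rose by 1.01 against saline (SE 0.12, adjusted p = 0.00186) and by 0.94 against AAV-GFP (SE 0.12, adjusted p = 0.00229). In the annotation 1.54% of its exon bases are shared with a transcript on the same strand.

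**Figure D4:**
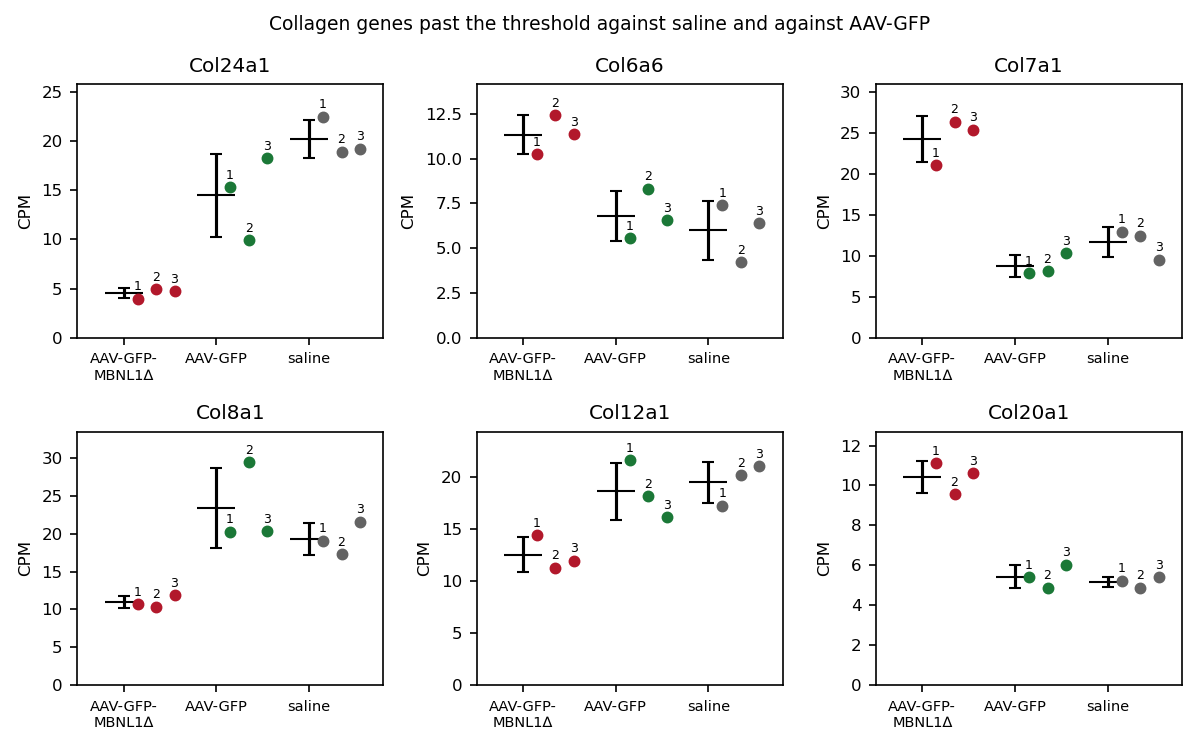
CPM in each library of the 6 collagen genes called for AAV-GFP-MBNL1∆ against saline and against AAV-GFP, with bars for mean ± SD (n = 3) and points numbered by replicate. Col6a6, Col7a1 and Col20a1 are higher in the AAV-GFP-MBNL1∆ libraries and Col24a1, Col8a1 and Col12a1 lower, with no overlap with the other groups.

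The short-chain collagen Col8a1 (chromosome 16, 57624258 to 57754737), which with Col8a2 forms hexagonal networks under endothelium, had 10.7, 10.4 and 11.9 CPM in AAV-GFP-MBNL1∆, 20.3, 29.5 and 20.3 CPM in AAV-GFP, and 19.1, 17.3 and 21.6 CPM in saline. No AAV-GFP-MBNL1∆ library reached the level of any other library. Col8a1 fell by 1.09 against AAV-GFP (SE 0.16, adjusted p = 0.00439), a call kept without any 1 library, and by 0.82 against saline (SE 0.16, adjusted p = 0.0166). The second call ended without saline 1, saline 3 or any 1 AAV-GFP-MBNL1∆ library (adjusted p up to 0.0667). Its partner Col8a2 had 3.00 to 4.99 CPM in AAV-GFP-MBNL1∆, 3.02 to 5.23 CPM in AAV-GFP and 4.07 to 5.44 CPM in saline, and passed no test. The ratio of Col8a1 to Col8a2 per kb was 1.23, 1.98 and 1.37 in AAV-GFP-MBNL1∆, 2.22, 5.60 and 2.73 in AAV-GFP, and 2.59, 2.44 and 2.28 in saline, with AAV-GFP-MBNL1∆ below all other libraries. Its exact permutation p was 0.1 in both comparisons, the smallest that 3 against 3 libraries allow, and 0.3 after adjustment over the 21 chain ratios tested. None of the 7 endothelial markers was called in any comparison; their summed level was 267 to 325 CPM in AAV-GFP-MBNL1∆, 248 to 357 CPM in AAV-GFP and 369 to 404 CPM in saline, and its part in the result was not tested.

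Among the fibril-associated collagens, Col14a1 and Col12a1 were lower in AAV-GFP-MBNL1∆. Col14a1, which limits fibril growth in tendon and skin, had 14, 10.9 and 13.5 CPM in AAV-GFP-MBNL1∆, 33.7, 55.5 and 28 CPM in AAV-GFP, and 20.4, 16.5 and 26.2 CPM in saline. The groups formed 3 tiers without overlap, with saline in the middle. Col14a1 fell by 1.61 against AAV-GFP (SE 0.27, adjusted p = 0.0086; at most 0.0414 with any 1 library left out). Against saline it stood at −0.72 (SE 0.27, adjusted p = 0.133; 0.0182 without AAV-GFP 2), and AAV-GFP against saline at 0.89 (SE 0.27, adjusted p = 0.129), which passed without AAV-GFP 3 (1.09, adjusted p = 0.0158).

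Col12a1, which bridges fibrils and other matrix proteins and is mutated in a human myopathy, had 14.4, 11.3 and 12 CPM in AAV-GFP-MBNL1∆, 21.6, 18.2 and 16.2 CPM in AAV-GFP, and 17.3, 20.2 and 21.1 CPM in saline. AAV-GFP-MBNL1∆ was below both other groups, which overlapped. Col12a1 fell by 0.63 against saline (SE 0.14, adjusted p = 0.0262) and by 0.57 against AAV-GFP (SE 0.14, adjusted p = 0.0257). The call against saline ended without any 1 saline library or AAV-GFP-MBNL1∆ 2 or 3, and the other without AAV-GFP 1 or AAV-GFP-MBNL1∆ 2 or 3 (adjusted p up to 0.105 in each).

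Col19a1 had 2.92, 5.17 and 3.72 CPM in AAV-GFP-MBNL1∆, 1.79, 3.10 and 2.26 CPM in AAV-GFP, and 1.78, 1.70 and 1.59 CPM in saline. Both vector groups lay above saline, by little in AAV-GFP 1. The gene rose by 1.22 in AAV-GFP-MBNL1∆ against saline (SE 0.26, adjusted p = 0.0224), a call that ended without any 1 saline library or AAV-GFP-MBNL1∆ 2 or 3 (adjusted p up to 0.0891). The value against AAV-GFP was 0.72 (SE 0.25, adjusted p = 0.0694; 0.02 without AAV-GFP 2). Col22a1, a collagen of the myotendinous junction, had 19.1, 18.4 and 20.2 CPM in AAV-GFP-MBNL1∆, 21.1, 13.7 and 23.4 CPM in AAV-GFP, and 29.8, 29.8 and 26.1 CPM in saline. All 6 vector libraries were below all 3 saline libraries, with log2 fold changes of −0.57 (SE 0.17, adjusted p = 0.0718) in AAV-GFP-MBNL1∆ and −0.56 (SE 0.17, adjusted p = 0.133) in AAV-GFP, neither past the threshold with all libraries and both read against the same saline libraries. The first passed without AAV-GFP 2 (−0.59, adjusted p = 0.00101) or AAV-GFP 3 (−0.59, adjusted p = 0.0359), and the second without AAV-GFP 3 (−0.71, adjusted p = 0.0212). None of the 7 markers of tendon and its junction with muscle was called in any comparison, and their sum was 433 to 610 CPM in AAV-GFP-MBNL1∆, 426 to 660 CPM in AAV-GFP and 484 to 607 CPM in saline. Col16a1 had 13.9, 14.6 and 14.7 CPM in AAV-GFP-MBNL1∆, 17.8, 21 and 16.4 CPM in AAV-GFP, and 15.5, 15.3 and 18.2 CPM in saline. AAV-GFP-MBNL1∆ was below all other libraries, at −0.35 against AAV-GFP (SE 0.11, adjusted p = 0.0517), and at −0.46 without AAV-GFP 3 (adjusted p = 0.0149).

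Type VI collagen, made of a Col6a1, a Col6a2 and 1 further chain, mostly Col6a3, is the collagen whose loss causes Ullrich and Bethlem myopathy in humans. Col6a1 had 112, 121 and 133 CPM in AAV-GFP-MBNL1∆, 133, 220 and 113 CPM in AAV-GFP, and 112, 102 and 124 CPM in saline. Col6a2 had 106, 116 and 143 CPM in AAV-GFP-MBNL1∆, 129, 214 and 108 CPM in AAV-GFP, and 103, 88.5 and 116 CPM in saline. Neither gene was called, and their values ran in parallel, with a Pearson correlation of log2 CPM of 0.98 over the 9 libraries, which share the group differences and the scaling. Both lie on chromosome 10, within 76595762 to 76726168.

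Col6a3 had 62.9, 60.9 and 83 CPM in AAV-GFP-MBNL1∆, 95.6, 149 and 87.3 CPM in AAV-GFP, and 97.0, 82.0 and 96.7 CPM in saline. AAV-GFP-MBNL1∆ was below AAV-GFP in every library and overlapped saline in 1. Col6a3 fell by 0.68 against AAV-GFP (SE 0.21, adjusted p = 0.0487), a call that ended without any 1 library other than AAV-GFP 3 (adjusted p up to 0.14); against saline it stood at −0.42 (SE 0.21, adjusted p = 0.249; 0.0272 without AAV-GFP 2). The ratio of Col6a3 to Col6a1 per kb was 0.206, 0.184 and 0.228 in AAV-GFP-MBNL1∆, 0.264, 0.248 and 0.283 in AAV-GFP, and 0.317, 0.295 and 0.287 in saline. These values fell into 3 tiers without overlap, with an exact permutation p of 0.1 for each pair of groups, the smallest possible, and 0.3 after adjustment over 21 ratios.

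The genes for the alternatives to that further chain are neighbours on chromosome 9. Col6a6 had 10.2, 12.4 and 11.4 CPM in AAV-GFP-MBNL1∆, 5.56, 8.33 and 6.58 CPM in AAV-GFP, and 7.41, 4.21 and 6.38 CPM in saline, with AAV-GFP-MBNL1∆ above all other libraries. It rose by 0.92 against saline (SE 0.22, adjusted p = 0.0343) and by 0.73 against AAV-GFP (SE 0.22, adjusted p = 0.045). The first call ended without any 1 saline or AAV-GFP-MBNL1∆ library (adjusted p up to 0.111), and the second without saline 1 or 3, AAV-GFP 1 or 3 or any 1 AAV-GFP-MBNL1∆ library (up to 0.126). Col6a5 was scarce, at 0.767, 1.02 and 0.989 CPM in AAV-GFP-MBNL1∆, 1.07, 2.67 and 0.642 CPM in AAV-GFP, and 0.404, 0.182 and 0.156 CPM in saline. All 6 vector libraries were above all 3 saline libraries, at log2 fold changes of 1.90 (SE 0.56, adjusted p = 0.0706) and 2.57 (SE 0.56, adjusted p = 0.0841) for AAV-GFP-MBNL1∆ and AAV-GFP against the same saline libraries, and without AAV-GFP 3 both passed (1.88, adjusted p = 0.0312, and 2.92, adjusted p = 0.00366).

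The abundant fibrillar genes were not called in any comparison with all 9 libraries. Col1a1 had 316, 360 and 446 CPM in AAV-GFP-MBNL1∆, 488, 434 and 252 CPM in AAV-GFP, and 340, 200 and 278 CPM in saline. Col1a2 had 407, 479 and 508 CPM in AAV-GFP-MBNL1∆, 611, 590 and 358 CPM in AAV-GFP, and 428, 341 and 418 CPM in saline. Both genes of type I collagen were high in AAV-GFP 1 and 2 and within the saline range in AAV-GFP 3, and correlated at 0.948 over the 9 libraries. Against saline, Col1a1 stood at 0.46 (SE 0.28, adjusted p = 0.337) in AAV-GFP-MBNL1∆ and 0.52 (SE 0.28, adjusted p = 0.283) in AAV-GFP.

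Col3a1, the collagen of thin and newly laid fibrils, had 369, 485 and 531 CPM in AAV-GFP-MBNL1∆, 476, 1196 and 317 CPM in AAV-GFP, and 315, 210 and 334 CPM in saline. Every AAV-GFP-MBNL1∆ library was above every saline library, and AAV-GFP 2 was far above all other libraries. The log2 fold changes were 0.69 (SE 0.45, adjusted p = 0.378) in AAV-GFP-MBNL1∆ and 1.21 (SE 0.45, adjusted p = 0.187) in AAV-GFP, both against saline, and −0.52 (SE 0.45, adjusted p = 0.409) between the vectors. The ratio of Col3a1 to Col1a1 per kb was 0.783, 0.900 and 0.796 in AAV-GFP-MBNL1∆, 0.652, 1.85 and 0.840 in AAV-GFP, and 0.620, 0.703 and 0.804 in saline, with 1 library, AAV-GFP 2, above 1.

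Type V collagen starts fibrils and sets their width. Col5a1 had 65.3, 66.8 and 81.9 CPM in AAV-GFP-MBNL1∆, 58.8, 107 and 53.0 CPM in AAV-GFP, and 54.0, 45.4 and 58.7 CPM in saline. Col5a2, the neighbour of Col3a1 on chromosome 1, had 45.6, 49.0 and 60.5 CPM in AAV-GFP-MBNL1∆, 53.4, 112 and 39.1 CPM in AAV-GFP, and 40.1, 33.0 and 42.5 CPM in saline. Col5a3 had 31.3, 38.3 and 41.2 CPM in AAV-GFP-MBNL1∆, 28, 66.4 and 22.2 CPM in AAV-GFP, and 29.1, 26.1 and 24.5 CPM in saline. For all 3 genes the AAV-GFP-MBNL1∆ libraries were above every saline library (log2 fold changes 0.42 to 0.48, adjusted p from 0.316 to 0.487; without AAV-GFP 2, 0.42 with adjusted p = 0.026 for Col5a1 and 0.46 with adjusted p = 0.0238 for Col5a3), while the AAV-GFP values spread on both sides of them. Between the vectors, Col5a3 stood at −0.07 (SE 0.36, adjusted p = 0.896), and at 0.56 (adjusted p = 0.0181) without AAV-GFP 2. The median log2 fold change of the 11 fibrillar genes against saline was 0.232.

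The type XI genes, better known from cartilage, were uncalled as well. Col11a1 had 7.01, 6.57 and 9.23 CPM in AAV-GFP-MBNL1∆, 14.8, 7.54 and 8.43 CPM in AAV-GFP, and 9.43, 9.66 and 11.4 CPM in saline. Col11a2 had 14.2, 15.3 and 15.1 CPM in AAV-GFP-MBNL1∆, 15.3, 7.78 and 13 CPM in AAV-GFP, and 15.7, 12.4 and 14.9 CPM in saline. AAV-GFP-MBNL1∆ was below saline in every library for Col11a1 alone.

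Col27a1, a fibrillar collagen of cartilage and other developing tissues, had 4.02, 4.22 and 4.31 CPM in AAV-GFP-MBNL1∆, 7.61, 10.5 and 5.98 CPM in AAV-GFP, and 4.75, 4.79 and 5.63 CPM in saline. As for Col14a1, the groups formed 3 tiers with saline in the middle. Col27a1 fell by 0.94 against AAV-GFP (SE 0.19, adjusted p = 0.0147), a call that ended without AAV-GFP-MBNL1∆ 1 or 3 (adjusted p 0.0527 and 0.0627). Its values against saline were −0.27 (SE 0.19, adjusted p = 0.414) in AAV-GFP-MBNL1∆ and 0.67 (SE 0.19, adjusted p = 0.113) in AAV-GFP, which passed without AAV-GFP 3 (0.85, adjusted p = 0.00703).

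The cartilage collagens were scarce. Col2a1 had 1.01, 1.16 and 1.11 CPM in AAV-GFP-MBNL1∆, 0.534, 0.436 and 0.642 CPM in AAV-GFP, and 1.23, 0.545 and 1.08 CPM in saline, and was higher by 1.03 against AAV-GFP (SE 0.31, adjusted p = 0.0446). Col9a2 had 0.481, 0.527 and 0.554 CPM in AAV-GFP-MBNL1∆, 0.222, 0.249 and 0.398 CPM in AAV-GFP, and 0.448, 0.348 and 0.390 CPM in saline, and was higher by 0.87 against AAV-GFP (SE 0.27, adjusted p = 0.0483). Leaving out 1 library at a time, the call of Col2a1 was kept for saline 2 and AAV-GFP 3 and lost for each of the other 7 (highest adjusted p 0.128), and that of Col9a2 was kept for AAV-GFP 3 alone (highest adjusted p 0.147). Of 5 cartilage markers, Acan, Matn1 and Cnmd were at 0.0664 CPM or less in every library, and the sum was 4.18 to 7.43 CPM in AAV-GFP-MBNL1∆, 5.42 to 6.17 CPM in AAV-GFP and 4.27 to 6.33 CPM in saline.

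In the basement membrane class, no gene was called against saline. Col4a1 had 214, 190 and 281 CPM in AAV-GFP-MBNL1∆, 219, 234 and 171 CPM in AAV-GFP, and 224, 195 and 209 CPM in saline. Col4a2 had 174, 138 and 221 CPM in AAV-GFP-MBNL1∆, 162, 180 and 133 CPM in AAV-GFP, and 162, 142 and 162 CPM in saline. These genes code for the chains of the common type IV network and overlapped in all groups; the widest fitted difference between groups was 0.19 (SE 0.18) on the log2 scale, for Col4a2 in AAV-GFP-MBNL1∆ against saline.

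They lie head to head on chromosome 8, Col4a1 on the minus and Col4a2 on the plus strand, and their annotated first exons share 22 bases, chr8:11312805-11312826 in GRCm38.p6. The shared stretch, shown because both genes start in it, is on the plus strand. Motifs are not marked in it, although it holds the letters of a GC box (GGGCGG).
Col4a1 and Col4a2: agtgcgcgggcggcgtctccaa
Across the 9 libraries the genes correlated at 0.966, and the ratio of Col4a1 to Col4a2 per kb stayed between 1.09 and 1.23 in all of them. The strand setting of the counting is not known, and the shared bases are 0.29% of the exons of Col4a1 and 0.33% of those of Col4a2.

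The other type IV pairs are also head to head, Col4a4 with Col4a3 on chromosome 1 and Col4a6 with Col4a5 on the X chromosome, and in kidney Col4a3, Col4a4 and Col4a5 build the network that is lost in Alport syndrome. Col4a4 had 3.77, 5.53 and 5.11 CPM in AAV-GFP-MBNL1∆, 2.39, 2.01 and 2.75 CPM in AAV-GFP, and 3.22, 3.29 and 2.31 CPM in saline, above both groups in each library. It rose by 1.02 against AAV-GFP (SE 0.21, adjusted p = 0.0149), a call that ended without AAV-GFP-MBNL1∆ 2 or 3 (adjusted p 0.0531 and 0.0674), and stood at 0.71 against saline (SE 0.21, adjusted p = 0.0652; 0.0249 without AAV-GFP 2). Col4a3, its partner, had 3.17 to 4.10 CPM in AAV-GFP-MBNL1∆, 1.96 to 3.37 CPM in AAV-GFP and 3.73 to 4.81 CPM in saline and was not called. In the annotation 5.65% of the exon bases of Col4a3 are shared with a transcript on the opposite strand.

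Col4a5 had 6.95, 7.55 and 7.69 CPM in AAV-GFP-MBNL1∆, 5.5, 3.95 and 5.49 CPM in AAV-GFP, and 8.59, 6.30 and 6.03 CPM in saline. AAV-GFP-MBNL1∆ overlapped saline and was above AAV-GFP, by 0.57 (SE 0.18, adjusted p = 0.0496), a call that was lost on leaving out any library but saline 1 or AAV-GFP 3 (highest adjusted p 0.147). The gene is X-linked, and the part of the sex pattern described above was not tested. Col4a6 had 0.959 to 1.07 CPM in AAV-GFP-MBNL1∆, 0.523 to 1.06 CPM in AAV-GFP and 0.787 to 1.34 CPM in saline.

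Types XV and XVIII, whose C-terminal fragments restrain vessel growth, gave no call. Col15a1 had 65.5, 82.6 and 87.5 CPM in AAV-GFP-MBNL1∆, 72.6, 80.7 and 68.9 CPM in AAV-GFP, and 83.8, 70.1 and 80.5 CPM in saline, with a fitted difference of 0.01 (SE 0.13) between AAV-GFP-MBNL1∆ and saline. Col18a1 had 18.1, 14.5 and 19.8 CPM in AAV-GFP-MBNL1∆, 18.9, 31.4 and 17.4 CPM in AAV-GFP, and 19.9, 19.2 and 20 CPM in saline. The groups overlapped for both genes apart from AAV-GFP 2, which was high for Col18a1.

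Among the transmembrane collagens, Col23a1 had 6.15, 4.04 and 4.84 CPM in AAV-GFP-MBNL1∆, 7.34, 7.83 and 8.04 CPM in AAV-GFP, and 7.15, 6.63 and 7.89 CPM in saline. It fell by 0.63 against AAV-GFP (SE 0.16, adjusted p = 0.0274), a call that ended without saline 1, AAV-GFP 1 or AAV-GFP-MBNL1∆ 2 or 3 (adjusted p up to 0.106), and stood at −0.53 against saline (SE 0.16, adjusted p = 0.0679; 0.0257 without AAV-GFP 2 and 0.036 without AAV-GFP-MBNL1∆ 1). Col13a1, which helps to form the neuromuscular junction, had 1.95 to 2.32 CPM in AAV-GFP-MBNL1∆, 2.46 to 2.74 CPM in AAV-GFP and 2.74 to 3.37 CPM in saline. Col25a1, which motor axons need to enter muscle in mouse, had 0.390 to 0.481 CPM in AAV-GFP-MBNL1∆, 0.636 to 0.682 CPM in AAV-GFP and 0.624 to 0.751 CPM in saline. All 3 genes had AAV-GFP-MBNL1∆ below every other library, and neither Col13a1 (adjusted p 0.0684 against saline and 0.176 against AAV-GFP) nor Col25a1 (0.0549 and 0.0537) was called with all libraries. Without AAV-GFP 2 both were called against saline (adjusted p 0.0312 for Col13a1 and 0.0379 for Col25a1).

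Col28a1, a collagen of peripheral nerve, had 0.737, 0.509 and 0.689 CPM in AAV-GFP-MBNL1∆, 1.01, 0.798 and 1.11 CPM in AAV-GFP, and 1.11, 1.21 and 1.11 CPM in saline. It fell by 0.82 against saline (SE 0.21, adjusted p = 0.0439) and stood at −0.58 against AAV-GFP (SE 0.21, adjusted p = 0.0767; 0.0476 without AAV-GFP 2). Leaving out any library but AAV-GFP 2 or 3 ended the call against saline (highest adjusted p 0.15). The 7 markers of Schwann and perineurial cells summed to 154 to 211 CPM in AAV-GFP-MBNL1∆, 175 to 239 CPM in AAV-GFP and 203 to 246 CPM in saline. None was called against saline, and 2, Slc2a1 and Pmp22, were lower against AAV-GFP, beside 10.3% of all genes. Each of these calls was kept in 2 of 9 fits with 1 library left out (adjusted p up to 0.171). The part of these cells was not tested. The remaining tested genes, Col9a1, Col9a3, Col17a1 and Col26a1, were at 1.21 CPM or less in every library and were not called with all libraries. Col9a1, a chain of the type IX collagen that coats cartilage fibrils, had 0.436, 0.455 and 0.375 CPM in AAV-GFP-MBNL1∆, 0.430, 0.150 and 0.930 CPM in AAV-GFP, and 1.21, 0.712 and 1.11 CPM in saline. AAV-GFP-MBNL1∆ was below saline in every library, at −1.26 (SE 0.52, adjusted p = 0.17; 0.0189 without AAV-GFP 2), and AAV-GFP against saline passed without AAV-GFP 3 (−1.81, adjusted p = 0.0211). Col9a3 was called against AAV-GFP without AAV-GFP 3 (−1.11, adjusted p = 0.0211).

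**Figure D5:**
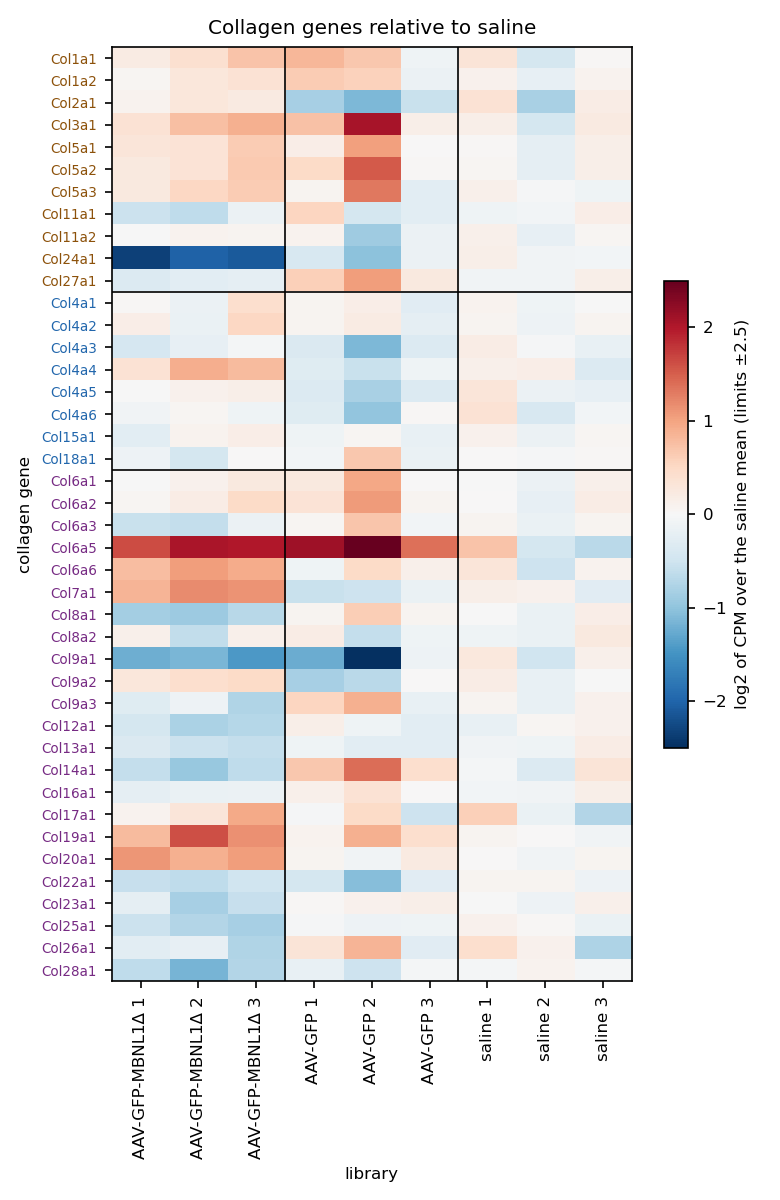
Log2 of the CPM of each tested collagen gene in each library over its saline mean, as colours from −2.5 (blue) to 2.5 (red) with values beyond these limits drawn at the limit, in rows grouped as fibrillar, basement membrane and other. AAV-GFP 2 is red across most abundant fibrillar and type VI genes, and the AAV-GFP-MBNL1∆ columns are alike in Col24a1, Col7a1, Col8a1 and Col20a1.

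AAV-GFP differed from saline in 0 of the 42 collagen genes by edgeR, beside 0% of all genes. At an unadjusted p under 0.05 there were 11 (5 higher and 6 lower), beside 22% of all genes (15.6% higher); the groups did not overlap for 8 (4 in each direction), beside 27.1% of all genes (14.7% higher and 12.4% lower). At an adjusted p under 0.05 there were 5 with DESeq2 (Col3a1, Col6a5, Col14a1 and Col27a1 higher and Col22a1 lower), beside 9.29% of all genes (8.8% higher and 0.492% lower), and 0 with limma-voom. The result turned on the AAV-GFP libraries: without AAV-GFP 3, 13 collagen genes were called (9 higher, among them Col1a1, Col1a2, Col3a1, Col5a2, Col6a1 and Col6a2, and 4 lower), beside 17.1% of all genes (15.3% higher and 1.86% lower), and without AAV-GFP 2 there were 0. Without AAV-GFP 3, Col3a1 stood at 1.55 (adjusted p = 0.0207), Col1a2 at 0.61 (adjusted p = 0.026) and Col1a1 at 0.76 (adjusted p = 0.0489). The fibrillar median log2 fold change was 0.468, the basement membrane median −0.192 and that of the other types 0.098, beside −0.014 over all genes. Relative to the saline mean, the fibrillar genes had a median log2 value of 0.471, 0.669 and −0.137 in AAV-GFP 1 to 3, and the basement membrane genes −0.202, −0.252 and −0.204. Within AAV-GFP, the libraries with high fibrillar values also had high macrophage markers (339 and 1483 CPM, against 150 CPM in AAV-GFP 3). In AAV-GFP-MBNL1∆ 1 to 3 the order was the reverse. There the fibrillar sums were 139.1, 165.3 and 189.1 CPM per kb and the macrophage sums 181, 139 and 116 CPM. The 8 lymphocyte markers summed to 4.70 to 13.6 CPM in AAV-GFP-MBNL1∆, 29.2, 72.4 and 4.45 CPM in AAV-GFP 1 to 3, and 0.485 to 0.765 CPM in saline, with Cd8a at 0 in each saline library. Of these, 2 (Lck and Cd3e) were called higher in AAV-GFP-MBNL1∆ against saline, beside 4.76% of all genes. Each call was kept in 2 of 9 fits with 1 library left out (adjusted p up to 0.126). No other lymphocyte marker and none of the 6 macrophage markers was called in any comparison. The part of these cells in the collagen values was not tested.

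Of 10 markers of fibroblasts and fibro-adipogenic cells, 8 were lower against AAV-GFP and 2, Pi16 and Dpp4, against saline, beside 10.3% and 4.6% of all genes. With 1 library left out at a time, the calls of Pi16 in both comparisons and of Dpp4 and Mfap5 against AAV-GFP were always kept, and each of the others ended in at least 1 case, that of Dpp4 against saline in 7 of 9 (adjusted p up to 0.146). Pi16, a marker of adventitial fibroblasts, had 24.1, 21 and 21 CPM in AAV-GFP-MBNL1∆, 45.8, 46.0 and 53.4 CPM in AAV-GFP, and 46.1, 48.3 and 46.7 CPM in saline. It fell by 1.09 against saline (SE 0.09, adjusted p = 0.000424) and by 1.14 against AAV-GFP (SE 0.09, adjusted p = 0.000304). The summed level of the 10 markers, dominated by Gsn, which muscle also expresses, was 1214 to 1291 CPM in AAV-GFP-MBNL1∆, 1048 to 1283 CPM in AAV-GFP and 1164 to 1267 CPM in saline, with none at 0. The 5 adipocyte markers summed to 137 to 166 CPM in AAV-GFP-MBNL1∆, 201 to 247 CPM in AAV-GFP and 213 to 284 CPM in saline, with 3 of them lower against AAV-GFP and 2 against saline, of which only the calls of Lep were kept without any 1 library (the others had adjusted p up to 0.154). Whether these cells had a part in the collagen differences was not tested.

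Of 17 genes for the folding and modification of collagen, 2 were higher and 0 lower against saline, and 2 were higher and 3 lower against AAV-GFP. Of all tested genes, 4.76% were higher and 4.6% lower against saline, and 10.8% higher and 10.3% lower against AAV-GFP. These shares also stand beside the counts of the lists that follow, and no list was tested as a set. P4ha2, a subunit of the prolyl hydroxylase that stabilises the helix, had 44.9, 40.8 and 46.7 CPM in AAV-GFP-MBNL1∆, 26.7, 24.6 and 30.3 CPM in AAV-GFP, and 31.2, 33.3 and 32.0 CPM in saline, above all other libraries, and rose by 0.70 against AAV-GFP (SE 0.09, adjusted p = 0.00314) and by 0.46 against saline (SE 0.09, adjusted p = 0.0191). Mia3, which loads procollagen into transport carriers, had 170 ± 14 CPM in AAV-GFP-MBNL1∆, 105 ± 8.17 CPM in AAV-GFP and 126 ± 7.18 CPM in saline (SD, n = 3) and rose by 0.70 against AAV-GFP (adjusted p = 0.00434) and by 0.43 against saline (adjusted p = 0.031). Plod2, a lysyl hydroxylase for crosslinks, had 4.33, 4.51 and 3.93 CPM in AAV-GFP-MBNL1∆, 10.3, 21.4 and 9.03 CPM in AAV-GFP, and 9.22, 8.37 and 9.77 CPM in saline. Plod2 fell by 1.68 against AAV-GFP (SE 0.30, adjusted p = 0.00971), a call that ended without AAV-GFP-MBNL1∆ 3 (adjusted p = 0.0525), and stood at −1.10 against saline (SE 0.29, adjusted p = 0.0524). The calls of P4ha2 and Mia3 against AAV-GFP were kept without any 1 library; against saline that of P4ha2 ended without AAV-GFP-MBNL1∆ 1 or 3 or any 1 saline library (adjusted p up to 0.09), and that of Mia3 also without AAV-GFP 1 (up to 0.122).

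Of 13 genes for propeptide cleavage and crosslinking, 0 were higher in either comparison and 1 was lower against saline (Tll2) and 2 against AAV-GFP (Tll2 and Adamts3). Of 14 tested genes for degradation, 1 was higher (Mmp9) and 1 lower (Mmp16) against saline, and 3 were higher (Timp4 and Mmp9 among them) and 3 lower (Mmp16 and Ctsl among them) against AAV-GFP. Mmp9, a gelatinase, had 2.90, 2.75 and 4.22 CPM in AAV-GFP-MBNL1∆, 0.756, 1.90 and 1.64 CPM in AAV-GFP, and 1.30, 1.39 and 1.24 CPM in saline, above all other libraries. Receptors for collagen were lower where called: 3 of 9 against saline (Itga1, Itga2 and Ddr2) and the same with Lair1 against AAV-GFP. Itga2, the integrin chain that binds fibrillar collagen, had 1.91, 1.36 and 1.30 CPM in AAV-GFP-MBNL1∆, 4.03, 3.70 and 2.99 CPM in AAV-GFP, and 3.91, 3.65 and 2.87 CPM in saline, below all other libraries. It fell by 1.19 against saline (SE 0.21, adjusted p = 0.0109), a call that ended without AAV-GFP-MBNL1∆ 3 or saline 1 or 2 (adjusted p up to 0.0581), and by 1.23 against AAV-GFP (SE 0.21, adjusted p = 0.00764), a call kept without any 1 library.

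Of 14 partners of fibrils, Ogn was higher against saline and against AAV-GFP, and Fn1 (fibronectin) and Postn (periostin) were lower against AAV-GFP. Of 12 partners in basement membranes, Agrn (agrin), Pxdn, which crosslinks type IV collagen, and Lamb2 were lower against saline, and Lama4 and Pxdn against AAV-GFP. Pxdn had 22.7 ± 3.03 CPM in AAV-GFP-MBNL1∆, 30 ± 2.5 CPM in AAV-GFP and 33.5 ± 3.34 CPM in saline (SD, n = 3). Of 14 regulators of matrix, 0 were called against saline, and Pdgfra, also a fibroblast marker here, was among those lower against AAV-GFP. In AAV-GFP against saline, 0 genes of these 7 lists were called by edgeR. Among the calls of the 7 lists, those of Tll2 against saline and of P4ha2, Mia3 and Itga2 against AAV-GFP were kept without any 1 library; each of the others ended without at least 1 library, most often an AAV-GFP-MBNL1∆ or a saline one (adjusted p up to 0.154).

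By likeness over the 9 libraries, the 5 protein-coding genes nearest to the mean of Col1a1, Col1a2 and Col3a1 in log2 CPM, among 9550 genes at a mean of 5 CPM or more, were Dcaf15 (Pearson correlation 0.939), Bach2 (0.932), Cpt1a (0.930), Trim27 (0.925) and Hnrnpa0 (0.923). Nearest to the mean of Col4a1 and Col4a2 were Susd6 (0.925), Rexo1 (0.906), Cables2 (0.882), Lman1 (0.871) and Cyb561 (0.862). With 9 libraries that share the groups and 1 library, AAV-GFP 2, far from the rest, these are descriptions of these libraries only.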

How the data were processed

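RNA from whole gastrocnemius (Trizol, DNase, 250 ng into a KAPA mRNA library kit, per the labels' protocols) was sequenced in 9 libraries. The deposited values are raw counts of reads per gene; the submitters' processing notes name cutadapt 2.10, STAR 2.7.5a, HTSeq 0.12.4, DESeq2 1.30.0 and the build mm10, while annotation release and strand setting were not given in the sources used here. Genes were matched to GENCODE M21 (55141 of 55401 identifiers, 41 of the 44 members with the same version). The 5 rows that name no gene, 16.84% to 18.27% of each table, were left out.

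From the counts, genes were filtered with filterByExpr (18514 kept), scaled with TMM (factors 0.892 to 1.26) and tested with edgeR 4.0.16 (R 4.3.3), in a quasi-likelihood fit over the 3 groups with 6 residual degrees of freedom and Benjamini-Hochberg adjustment over all genes. A standard error is the absolute log2 fold change over the square root of F, and CPM use TMM library sizes. Because the labels name no animals, p-values measure the spread between libraries, which may be technical. Replicate libraries differed well beyond counting error.

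Values in every library are given for the 32 members that reached 5 CPM in a group or were called. They are also given for Col6a5 and Col9a1, chosen outside that rule after their values were seen. Up to 4 genes are named of each companion list, by smallest p in the comparison. The choice to describe collagen genes, and the lists, were made with earlier results of these data known. Alternatives were DESeq2 1.42.0, limma 3.58.1 (voom, with and without library weights), other scalings and filters, a replicate block, the 2 compared groups alone and leaving out each library.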

Additional observations from a re-analysis of the deposited data

How the results depend on the processing

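Of the collagen results, the calls of Col7a1, Col20a1 and Col24a1 in both AAV-GFP-MBNL1∆ comparisons and of Col8a1 and Col14a1 against AAV-GFP passed in every alternative run. The counts of calls moved more. The fit shares 1 estimate of spread over the 3 groups, so every library enters the p-values of every comparison. For Col22a1 in AAV-GFP-MBNL1∆ against saline, leaving out AAV-GFP 2 moved the log2 fold change from −0.57 to −0.59. The adjusted p from edgeR moved from 0.0718 to 0.00101. How far the shared spread accounts for the moves in the counts was not tested. AAV-GFP against saline (0 genes, 0 collagen genes) gave 1720 and 5 with DESeq2, 5464 and 17 with library quality weights, and 0 to 3262 and 0 to 13 when 1 library was left out. AAV-GFP-MBNL1∆ against saline (1734 and 8) gave 2888 and 13 with DESeq2, 5458 and 20 with quality weights, 4584 and 22 with these 2 groups alone, and 500 to 4047 and 3 to 19 when 1 library was left out (3 without saline 1 or 3 or AAV-GFP-MBNL1∆ 2 or 3, 4 without saline 2, 19 without AAV-GFP 2). AAV-GFP-MBNL1∆ against AAV-GFP (3914 and 14) gave 9294 and 24 with quality weights, 1159 and 7 with these 2 groups alone, and 826 to 6649 and 5 to 15 when 1 library was left out (5 without AAV-GFP-MBNL1∆ 3, 6 without AAV-GFP-MBNL1∆ 2, 7 without AAV-GFP 1, 8 without AAV-GFP-MBNL1∆ 1, 9 without saline 1 or 3). Between the vectors, Col5a3 (−0.07) turned to 0.41 and Col5a1 (−0.03) to 0.318 with quality weights, both called, and leaving out 1 library moved Col5a3 between −0.376 and 0.564, the higher value without AAV-GFP 2. Deviations of same-numbered libraries correlated at −0.082 to 0.446 and not all above 0.1, so the numbers were not taken to pair them; with the replicate block, 99 genes and 0 collagen genes were called for AAV-GFP against saline, 1412 and 6 for AAV-GFP-MBNL1∆ against saline, and 2837 and 9 for AAV-GFP-MBNL1∆ against AAV-GFP. The standard error was largest for the scarce Col6a5 and Col9a1.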
